A study of Papio hamadryas with 17 samples.

Results

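The 8 genes of the pathway through which aldosterone controls sodium uptake in the kidney were described in baboon kidney cortex. They were the mineralocorticoid receptor NR3C2, the glucocorticoid receptor NR3C1, the enzyme HSD11B2, the sodium channel subunits SCNN1A, SCNN1B and SCNN1G, the kinase SGK1 and the ubiquitin ligase NEDD4L. Transcripts were taken by gene symbol, and a gene's transcripts present in both deposited transcript tables were summed. All 8 genes were found among 13851 gene names in the table of females, with 32 of its 26644 transcripts. In both tables there were 7 of the 8 genes, among 9819 gene names, with 23 transcripts. The table of males breaks off within a row, and any transcripts after that point are not analysed here. NR3C1 was found in the table of females alone. The study sequenced polyadenylated RNA from kidney cortex biopsies of 8 female and 9 male baboons labelled Papio hamadryas. All animals had eaten a low-salt chow throughout life and received no experimental treatment, and the ultrasound-guided biopsies were taken under ketamine and isoflurane and frozen in liquid nitrogen. The females were aged 15 to 19 and the males 6 to 13, in a unit the labels do not give. Every animal is a separate sample, all animals came from 1 colony, and there is no group on another diet.

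Aldosterone acts in the last segments of the nephron, the late distal convoluted tubule, the connecting tubule and the collecting duct. There it binds the mineralocorticoid receptor in principal cells, which is kept free of cortisol by HSD11B2, an enzyme that inactivates cortisol. Sodium enters these cells through the epithelial sodium channel, built from alpha, beta and gamma subunits. NEDD4L marks the channel for removal from the membrane by attaching ubiquitin. SGK1, a kinase induced by corticosteroids, phosphorylates NEDD4L and so limits that removal. A low-salt diet is a classical stimulus of aldosterone release, and here the females and the males shared it.

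Values are the deposited signal less 1, the lowest value in the tables. No step for transcript length is stated, so levels are compared between libraries of the same gene and not between genes. The 3 biopsies female 1, female 2 and male 6 were rich in skeletal muscle RNA: the mean log2(signal + 1) of the muscle genes ACTA1 and CKM was 14.7 to 15.6 in them, against 0.55 to 3.44 in the other 14. These 14 libraries (6 females and 8 males) carry the comparisons. The spacing of the lowest values gave relative depths of 0.558 to 1 for 13 of them and 0.164 for female 6. Of the genes listed as principal cell markers, AQP2, the vasopressin-regulated water channel, was at 45.2 to 376 in the 14. AQP3, GATA3 and TMEM213 did not fall below 3.82, but AQP4 of the same list did not exceed 0.112. Others were low in single libraries: FXYD4 at 0.162 in female 5 and 0.176 in male 3, KCNE1 at 0.105 in female 3, and AVPR2 at 0.318 in female 6. Of the 5 connecting tubule markers, 2 were in both tables. The females had lower proximal tubule markers than the males for 9 of 9 genes (7 of 9 passed after median or upper quartile scaling). Sex, age and library name series coincided: all females carry a name series of their own, and their ages do not overlap with those of the males. Effects of the 3 cannot be told apart, and in bulk tissue fewer cells of a type cannot be told apart from less RNA per cell.

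The mineralocorticoid receptor had signal in all 17 biopsies, whether of kidney or muscle-rich. NR3C2 (NC_018156.2, 142844274 to 143217290, minus strand) ranged in signal over the 6 females from 1.70 through a median of 6.01 to 8.24. In the 8 males the values were 5.19, 6.52 and 9.88. The sexes overlapped, and female 6 lay below all other libraries. In the muscle-rich biopsies it was 4.64, 4.15 and 4.71, close to the low end of the kidney libraries. NR3C1, the receptor of cortisol, was represented by a single transcript (NC_018157.2, 137608679 to 137722974, minus strand) in the table of females. Its signal was 1.51, 0.836, 1.51, 0.00614, 0.878 and 0.0064 in females 3 to 8, and 3.17 in the muscle-rich female 2. It is not compared between the sexes here, because only the table of females holds it. The values of females 6 and 8 lie below the step between low values in their libraries, 0.3235 and 0.083, and the other 4 lie above theirs.

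HSD11B2, which protects the receptor from cortisol, was far higher in the kidney than in the muscle-rich biopsies. Its signal (NC_018171.2, 49780007 to 49786448, plus strand) was 242 at the lowest, 460 at the median and 683 at the highest of the females, and 189, 499 and 832 in the males. The 3 muscle-rich biopsies had 15.9, 6.31 and 34.6. HSD11B2 spanned a 4.41-fold range over the 14 kidney libraries, with both ends of the range in males and full overlap of the sexes.

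SCNN1A, the alpha subunit (NC_018162.2, 6469810 to 6501658, minus strand), had the narrowest range of the 7 genes over the 14 libraries, 2.1-fold (without female 6 that of NR3C2 was narrower, 1.96-fold). Females had 187, 256 and 301 at the lowest, median and highest, and males 143, 186 and 247. Of the 6 females 3 lay above the highest male and no female lay below the median male. The muscle-rich biopsies had 4.01, 5.99 and 20.8.

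The beta and gamma subunit genes lie 106 kb apart on the same strand of NC_018171.2 (SCNN1G at 20886518 to 20920126, SCNN1B at 21026118 to 21112441). SCNN1B had 3.38, 19.3 and 28.3 at the lowest, median and highest of the females, and 13.0, 22.2 and 35.2 in the males. SCNN1G had 3.50, 26.5 and 33.7 in the females and 26.7, 36.5 and 53.9 in the males, and 7 of the 8 males lay above the highest female. Female 6 held the lowest value of both. Without it the range over libraries fell from 10.4-fold to 2.70-fold for SCNN1B and from 15.4-fold to 2.27-fold for SCNN1G. In the muscle-rich biopsies SCNN1B was at most 3.22 and SCNN1G at most 3.23.

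SGK1, the corticosteroid-induced kinase (NC_018155.2, 128921674 to 128928693, plus strand), had the highest coefficient of variation of the 7 genes among the females, 58.2%. Its signal was 12.0 at the lowest, 38.7 at the median and 79.9 at the highest female, a 6.64-fold range (9.64-fold for SCNN1G and 8.36-fold for SCNN1B, both with female 6 lowest), and 41.4, 47.5 and 77.0 in the males, a 1.86-fold range. The lowest value was that of female 3 and the highest that of female 7. In the muscle-rich biopsies it was 11.9, 20.1 and 12.5, about the level of the lowest kidney libraries.

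NEDD4L, the ligase that acts on the channel (NC_018169.2, 50478059 to 50847370, plus strand), had 21.8, 34.6 and 57.2 at the lowest, median and highest of the females and 44.0, 58.4 and 83.1 in the males. Of the 6 females 4 lay below the lowest male and 4 of the 8 males above the highest female. The muscle-rich biopsies had 9.54, 1.32 and 1.95 over the transcripts of both tables. This sum leaves out 6 NEDD4L transcripts held in the table of females alone. Those had 30.0 in female 1 and 57.9 in female 2, against 7.44 to 21.7 in the 6 kidney females. The low values in the muscle-rich females therefore hold for the shared transcripts only.

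**Figure D1:**
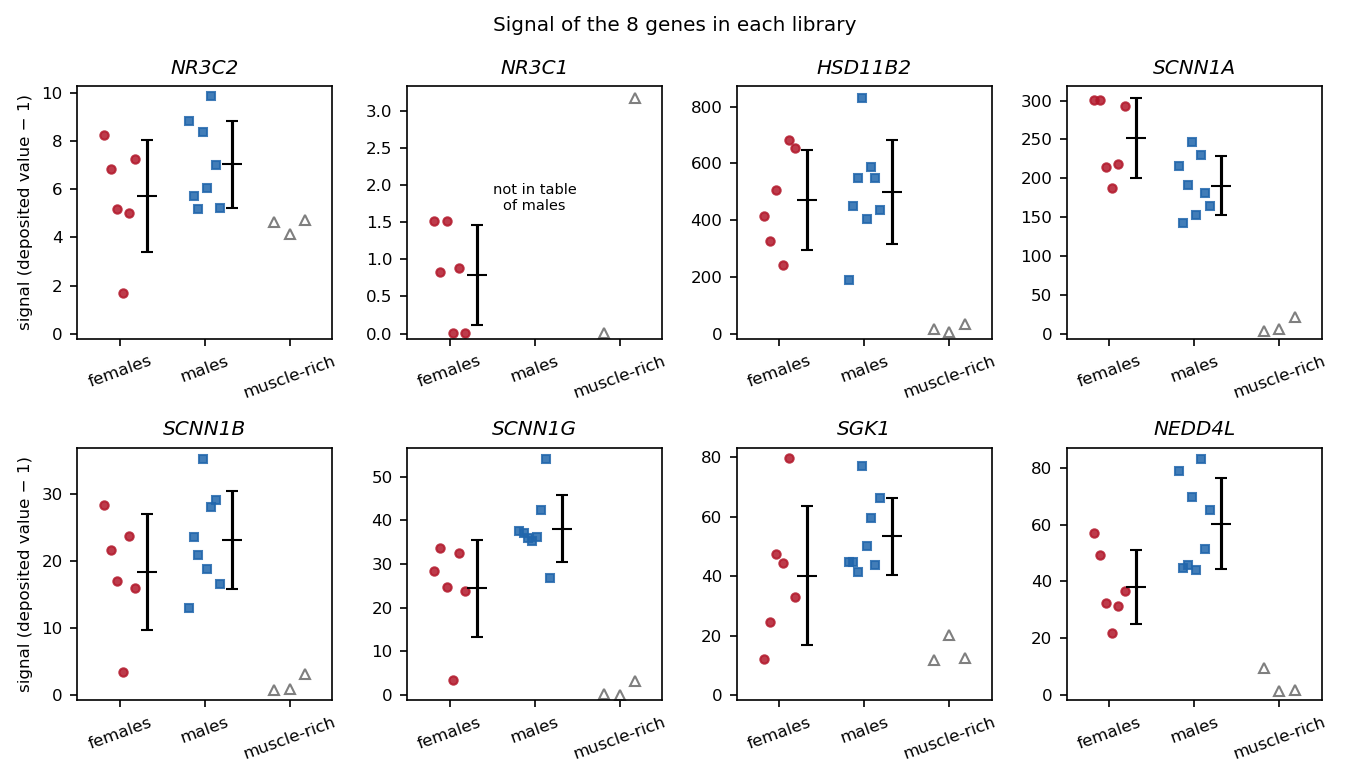
Signal (deposited value less 1, linear axis from 0) of each gene in each library, with females as circles, males as squares and the 3 muscle-rich biopsies as open triangles. Genes other than NR3C1 are summed over the transcripts in both tables, which leaves out 6 NEDD4L transcripts. Bars give mean ± SD of the 6 females and 8 males. In the muscle-rich biopsies HSD11B2 and SCNN1A lie below all 14 kidney libraries, with at most 34.6 and 20.8, and NR3C2 lies within the range of the kidney libraries.

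Between the sexes, 1 of the 7 genes, NEDD4L, passed the test as deposited, and it was lower in females. The test was limma on log2(signal + 1) with Benjamini-Hochberg adjustment over 9533 genes, of which 38.3% passed at an adjusted p under 0.05. NEDD4L was 38.2 ± 13.0 in females (SD, n = 6) and 60.4 ± 15.9 in males (SD, n = 8), which is -0.67 in log2 (SE 0.21) with a limma adjusted p of 0.0203. These sums leave out the NEDD4L transcripts held in the table of females alone. With them the females had 50.9 ± 16.2 (SD, n = 6), and no such value exists for the males. The passing genes were mostly lower in females, 36% of those tested against 2.22% higher, and the median difference over all genes was -0.35. The count of 1 in 7 is no larger a share than that over all genes. After scaling each library to its median, which moved the median of all genes to 0.06, NEDD4L no longer passed (log2 difference -0.27, limma adjusted p = 0.244). Its adjusted p was also 0.051 without female 6 and 0.116 against the males of name series A alone.

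SCNN1A differed in the other direction. It was 252 ± 51.4 in females (SD, n = 6) and 191 ± 37.6 in males (SD, n = 8), higher by 0.40 on the log2 scale (SE 0.17) with a limma adjusted p of 0.0654, which did not pass. Relative to the median of all genes it was 0.75 higher, and 94.2% of the genes tested had a lower female minus male difference. It passed after median scaling, higher in females by 0.81 with a limma adjusted p of 0.00109, and after upper quartile scaling, by 0.84 with 0.000828. As deposited it passed without female 6 (0.48, limma adjusted p = 0.0352) and without male 4 (0.46, limma adjusted p = 0.0417). With the 3 muscle-rich biopsies added the value was -0.60 (limma adjusted p = 0.686).

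For the remaining 5 genes the sex difference did not pass the test as deposited or after median or upper quartile scaling. SCNN1G was 24.4 ± 11.0 in females (SD, n = 6) and 38.1 ± 7.73 in males (SD, n = 8), which is -0.84 in log2 (SE 0.36) with a limma adjusted p of 0.075. The difference was -0.58 (SE 0.30) for SGK1, -0.47 (SE 0.35) for SCNN1B, -0.33 (SE 0.24) for NR3C2 and -0.07 (SE 0.30) for HSD11B2. SGK1 passed without female 7, its highest library (-0.82, limma adjusted p = 0.0266), and SCNN1G with a pseudocount of 10 (limma adjusted p = 0.0471). The sign for NR3C2 and HSD11B2 turned positive after either scaling.

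**Figure D2:**
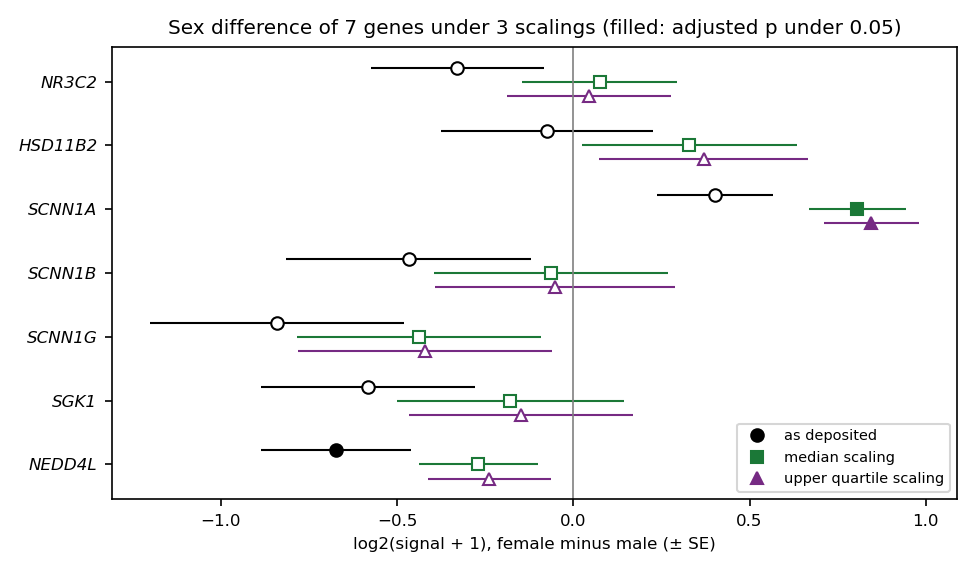
Female minus male difference in log2(signal + 1) for 7 genes (points, with SE as bars) as deposited, after median scaling and after upper quartile scaling. Filled points passed at an adjusted p under 0.05: NEDD4L at -0.67 as deposited, and SCNN1A at 0.81 and 0.84 after the scalings.

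A ratio of 2 genes within a library does not depend on the scaling of that library. The 3 subunit ratios were chosen after SCNN1A and SCNN1G had been seen to differ in opposite directions, so their values are a description, with no test. The log2 ratio of SCNN1G to SCNN1A was -5.74 at the lowest, -3.28 at the median and -2.74 at the highest female, and -2.81, -2.43 and -1.75 in the males. Of the 6 females 5 lay below the lowest male. The means differed by -1.31, by -0.89 without female 6, by -1.28 against the males of series A and by -1.36 against those of series B.

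The log2 ratio of SCNN1B to SCNN1A was -5.79, -3.73 and -3.20 in the females and -4.05, -3.03 and -2.60 in the males, and 2 of the 6 females lay below the lowest male. The means differed by -0.92, by -0.57 without female 6, by -0.87 against series A and by -1.01 against series B. For SCNN1G over SCNN1B the means differed by -0.38, and 0 of the 6 females lay below the lowest male.

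Single transcripts of SCNN1A and NR3C2 passed the test between the sexes, whereas the gene sums as deposited did not. The NR3C2 transcript met the filter for testing through males alone. Among the 22 member transcripts tested, 8 passed, 2 higher and 6 lower in females. Over all 15968 transcripts 26.9% passed. After median scaling 4 passed, 3 higher and 1 lower, and after upper quartile scaling 5 passed, 3 higher and 2 lower. Of all 15968 transcripts, 2856 passed after median scaling (1184 higher and 1672 lower). After upper quartile scaling it was 2949 (1161 higher and 1788 lower). Transcripts of a gene share most of their sequence, and how reads were divided among them is not given in the sources used here, so these are the deposited estimates.

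The alpha subunit transcripts moved in opposite directions. SCNN1A XM_021921938.1, whose start lies farthest upstream (position 6501658 on the minus strand), was 86.9 ± 29.7 in females (SD, n = 6) and 34.8 ± 7.15 in males (SD, n = 8). It was 43.9, 93.4 and 124 at the lowest, median and highest female and 27.9, 33.5 and 44.1 in the males. In log2 the difference came to 1.24 (SE 0.22) with a limma adjusted p of 0.000929. Over the transcripts in both tables it made up 34.4% of the gene's signal in the median female and 18.2% in the median male. SCNN1A XM_021921936.1 was lower in females, at 24.2, 28.5 and 31.6 against 41.4, 50.2 and 74.9 in the males, so that the sexes did not overlap, as was the case for 7.38% of the 15968 transcripts. In log2 it differed by -0.90 (SE 0.16) with a limma adjusted p of 0.00102. Both passed after either scaling, against the males of either name series and without each library in turn. With all 17 libraries neither passed (0.32 with a limma adjusted p of 0.827 for XM_021921938.1, and -1.72 with 0.159 for XM_021921936.1), nor did they with age as a term (limma adjusted p = 0.941 and 0.945). The other 3 SCNN1A transcripts in both tables did not pass, the nearest being XM_021921941.1 with 0.72 (SE 0.28, limma adjusted p = 0.064). XM_021921937.1, held in the table of females alone, has the same start and end as XM_021921936.1. It was at 6.72 to 23.5 in the 6 females and has no value in males. The lack of overlap therefore holds for XM_021921936.1 alone, and the 2 transcripts together cannot be compared.

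NR3C2 XM_017959113.2, the receptor transcript with the start farthest downstream (position 143212683 on the minus strand), was lower in females without overlap. It was 0.106, 0.343 and 0.659 at the lowest, median and highest female and 0.717, 1.40 and 3.66 in the males. All 6 females lay below 1, so it met the filter of a signal of 1 in 6 or more libraries through males alone. The call of this transcript and its lack of overlap are therefore a description. In log2 it differed by -0.93 (SE 0.22) with a limma adjusted p of 0.00572, after median scaling by -0.58 with 0.0565 and after upper quartile scaling by -0.77 with 0.0165. The main receptor transcript, XM_017959108.2, held 82.5% of the gene's signal in the median female and 49.7% in the median male, and itself differed by 0.17 in log2 (SE 0.23) with a limma adjusted p of 0.629. The value of XM_017959113.2 in female 6, 0.106, lies below the step between low values of that library, 0.3235, and those of the males lie well above their steps of 0.053 to 0.092.

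NEDD4L transcripts differed by their first base. Of its transcripts 10 were in both tables and 9 were tested. There are 5 that start at 50478059 to 50479031, and 4 of these were lower in females, with log2 differences of -1.35, -1.29, -1.09 and -1.0 (limma adjusted p = 0.0195 to 0.0306). XM_003914415.4, which starts at 50657542, was higher in females by 1.33 (SE 0.47, limma adjusted p = 0.0433). It passed after median scaling too (1.68, limma adjusted p = 0.0279), whereas 0 of the 4 lower transcripts did. The 5 calls were close to the threshold: leaving out single libraries ended 4 of them, with a limma adjusted p of up to 0.109 (XM_003914415.4 without female 8). Some of their values lay below the step between low values of the library. In female 6 (step 0.3235) XM_017951785.2 was at 0.0681 and XM_017951787.2 at 0.0945. In male 5 (step 0.065) XM_003914415.4 was at 0.0237.

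NEDD4L signal was also summed by start, with shares taken over its transcripts in both tables. The most upstream transcripts gave 14.4% to 57.2% in females and 45.2% to 68.1% in males. Those starting at 50657540 to 50657542 gave 11.7% to 68.6% in females and 0.0675% to 30.6% in males. The highest share of the latter was in female 8, with 25.2 of 36.7. Over all transcripts of the table of females, these 2 shares were 9.74% to 42.7% and 9.80% to 57.1% in the 6 females. Transcripts that start farther downstream stood out in the muscle-rich females when all transcripts of their table were counted. In the table of females, 7 transcripts start at 50691874 to 50691876, and they gave 80.5% and 98.8% of NEDD4L signal in females 1 and 2, against 18.0% to 41.5% in the 6 kidney females. Over the transcripts in both tables, which hold 1 of these 7, it gave 19.2% in female 1, 44.0% in female 2 and 99.1% in male 6. By that measure the most upstream starts gave 72.6% in female 1.

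**Figure D3:**
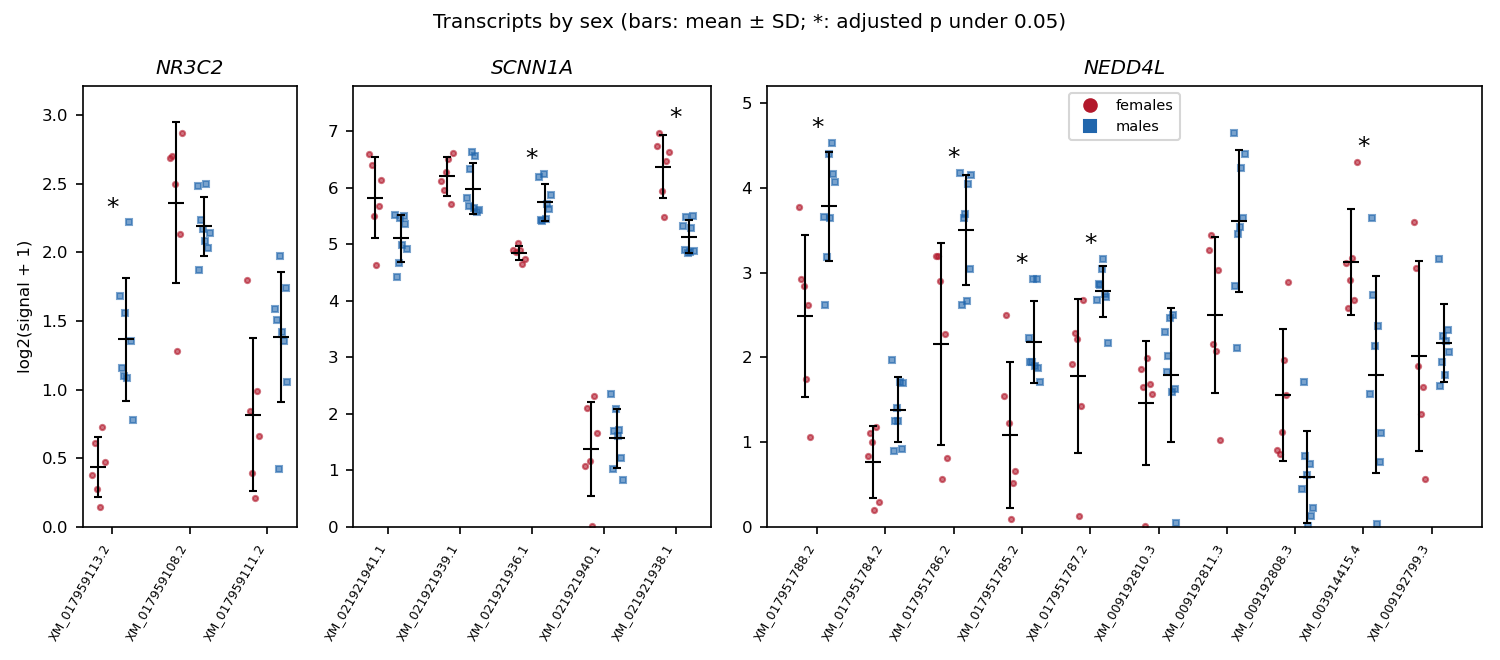
Log2(signal + 1) of each transcript of NR3C2, SCNN1A and NEDD4L held in both tables, in 6 females (circles) and 8 males (squares), with mean ± SD as bars. Asterisks mark an adjusted p under 0.05. XM_021921938.1 is high in females and XM_021921936.1 is high in males.

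The share of genes around the pathway that passed between the sexes as deposited was near that of all genes. The lists were drawn from general knowledge and hold other genes than the 8. Of 46 such genes tested, 18 passed, 0 higher and 18 lower. Over all genes 38.3% passed and 36% were lower, the background as deposited for each list that follows. After median scaling 17 passed, 8 higher and 9 lower, and after upper quartile scaling 17 passed, 9 higher and 8 lower. Of all 9533 genes, 2812 passed after median scaling (1411 higher and 1401 lower). After upper quartile scaling it was 2785 (1321 higher and 1464 lower). Proximal tubule, distal convoluted tubule and other tubule markers moved with sex in the same libraries, and their part in these counts was not tested.

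Among receptor chaperones and steroid-metabolising genes, 2 of 7 passed, both lower in females, and the list median was 0.01 against -0.35 for all genes. FKBP5, a corticosteroid-induced co-chaperone of the receptors, was 30.1 ± 9.83 in females (SD, n = 6) and 55.9 ± 17.0 in males (SD, n = 8), or -0.89 in log2 (limma adjusted p = 0.0071). HSPA8, a constitutive heat shock protein, differed by -0.58 (limma adjusted p = 0.037). Neither passed after median scaling, when 4 of the 7 passed as higher in females, against 1411 of all 9533 genes.

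Of 10 corticosteroid-responsive genes, 4 were lower in females and the median was -0.36. ERRFI1, a feedback inhibitor of the epidermal growth factor receptor, fell most, by 1.86 on the log2 scale (SE 0.36) with a limma adjusted p of 0.000839, and was also lower after both scalings. In the group of channel proteases and ubiquitin regulators 5 of 11 were lower, with a median of -0.38. ITCH, a ligase of the NEDD4 family, differed by -0.96 (limma adjusted p = 0.000139) without overlap of the sexes, as for 12.2% of all genes, and YWHAB, a 14-3-3 protein, by -0.79 (limma adjusted p = 0.000295).

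Among genes of the kinase cascade around SGK1, 4 of 9 were lower, with a median of -0.33. PIK3CB, a catalytic subunit of phosphoinositide 3-kinase, differed by -1.15 (limma adjusted p = 0.000419) and PRR5, a subunit of the kinase complex mTORC2, by -0.82 (limma adjusted p = 0.00224). Among sodium and potassium exit partners 5 of 12 were lower, with a median of -0.43. SLC12A3, the thiazide-sensitive cotransporter, differed by -2.22 (SE 0.71, limma adjusted p = 0.0215) and KCNMA1, the large-conductance potassium channel, by -1.41 (limma adjusted p = 0.00702). Of the genes listed as principal cell markers 1 of 7 was lower (TMEM213, -0.81, limma adjusted p = 0.0395). Whether TMEM213 marks principal cells in this tissue was not tested. Of the connecting tubule markers 1 of 2 was lower (CALB1, -1.14, limma adjusted p = 0.0144), and of 8 immediate early genes 0 passed. After either scaling 0 of the connecting tubule and immediate early genes passed, and 1 principal cell marker was higher and 0 lower.

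Over the 14 libraries 6 of 21 gene pairs were correlated, all among the receptor, HSD11B2, the beta and gamma subunits and the ligase, and 0 of the 21 passed without female 6. Correlations are between log2(signal + 1) values with two-sided permutation p-values, adjusted over 21 gene pairs. NR3C2 and NEDD4L had a Pearson's r of 0.82 (adjusted permutation p = 0.00567) and a Spearman's rho of 0.81 (adjusted permutation p = 0.0174). Their r was 0.89 in females and 0.78 in males, and 0.64 without the 2 libraries farthest from the median of NR3C2 (permutation p = 0.0282). NR3C2 was not a rare match for NEDD4L: 10.6% of 9532 genes had an r of at least 0.8 with NEDD4L, against 2.16% with NR3C2.

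SCNN1B and SCNN1G had an r of 0.89 (adjusted permutation p = 0.0404) and a rho of 0.48 (adjusted permutation p = 0.357). The value rests on female 6, without which r was 0.46 (permutation p = 0.11). Without female 6 and male 4, the libraries farthest from the median of SCNN1B, r was 0.50 (permutation p = 0.0945). It was 0.98 in females and 0.46 in males. The r of NR3C2 was 0.83 with SCNN1G and 0.79 with SCNN1B, and 0.31 and 0.29 without female 6. The r of HSD11B2 with SCNN1B was 0.66, and it was 0.89 in the 8 males alone (exact permutation p = 0.00146, adjusted 0.0307). That of SCNN1G with NEDD4L was 0.67, and -0.07 in males. Without female 6 the highest r of the 21 was that of NR3C2 with NEDD4L, at 0.73 (permutation p = 0.00587, adjusted 0.123). Other libraries changed the count too: 1 pair passed without female 5 or without male 7, 2 without male 4 or male 8, and 3 without male 2, 3, 5 or 9.

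SCNN1A was correlated with the receptor and the ligase once each sex was centred on its own mean. Over the 14 libraries its r was 0.40 with NR3C2 and 0.12 with NEDD4L. After centring, r was 0.80 with NR3C2 (adjusted permutation p = 0.00157) and 0.83 with NEDD4L (adjusted permutation p = 0.00357). With NEDD4L it was 0.91 in females and 0.76 in males, neither passing after adjustment (adjusted exact permutation p = 0.0583 and 0.209). Its r with SCNN1B was 0.20 and with SCNN1G 0.01, both not passing.

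No correlation of SGK1 with another of the genes passed. Its r with SCNN1A, SCNN1B, SCNN1G and NEDD4L was -0.50, -0.01, 0.07 and 0.02. It was correlated with proximal and distal convoluted tubule markers, each level being the mean log2(signal + 1) of a marker list. With the proximal tubule level r was 0.88 (adjusted permutation p = 0.0031 over 49 gene and level pairs) and rho 0.68 (adjusted permutation p = 0.0724). That r was 0.95 in females and 0.77 in males, and 0.56 without females 3 and 4 (permutation p = 0.0552). With the distal convoluted tubule level r was 0.85 (adjusted permutation p = 0.00196) and rho 0.82 (adjusted permutation p = 0.0294), with 0.88 in females and 0.84 in males. Without females 3 and 4 it was 0.69 (permutation p = 0.0135). SGK1 is also an early response gene in many cells, but its r with the immediate early level was 0.23 and did not pass.

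**Figure D4:**
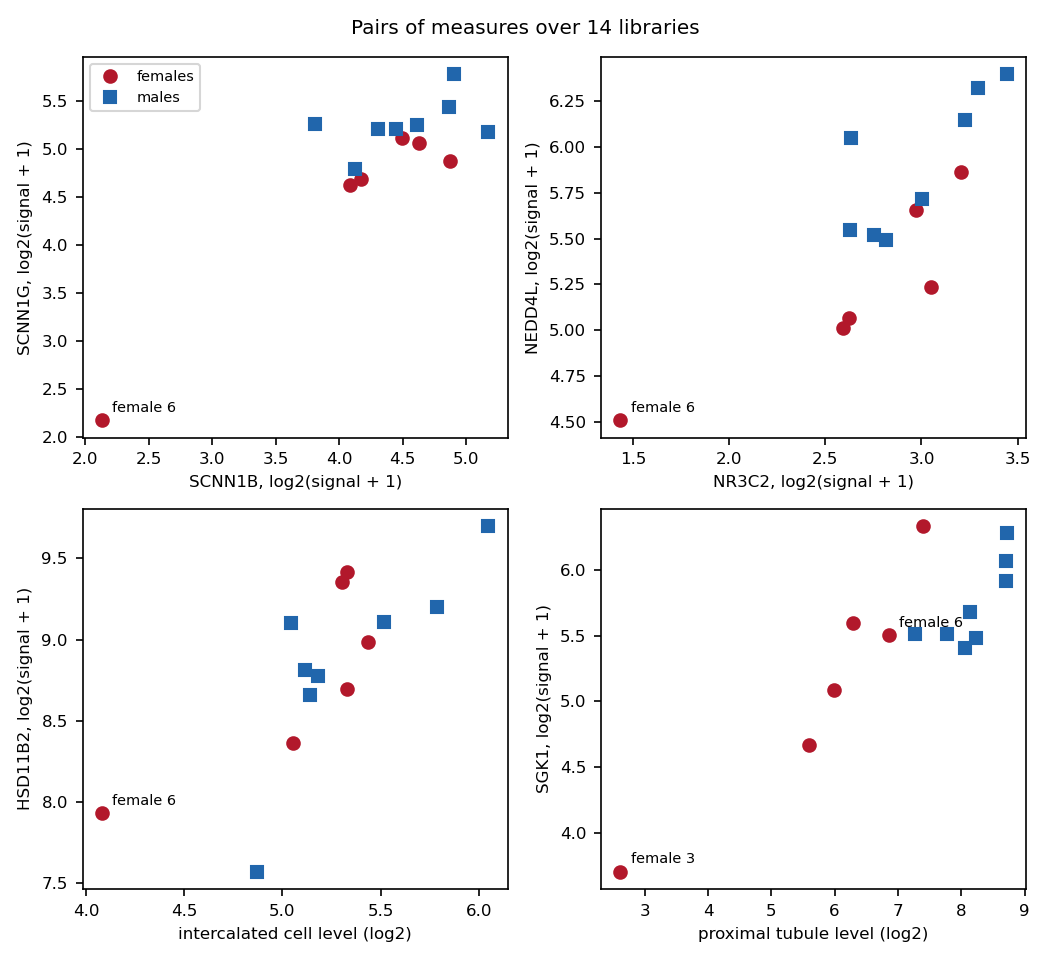
Each point is a library (females as circles, males as squares), plotted as log2(signal + 1) for genes and mean log2(signal + 1) for marker lists. Female 6 lies apart in the panels of SCNN1B against SCNN1G and of NR3C2 against NEDD4L, and female 3 at the low end of the proximal tubule level.

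HSD11B2 and SCNN1B were correlated with the intercalated cell level. HSD11B2 had an r of 0.78 with the intercalated cell level (adjusted permutation p = 0.0096; rho 0.77, adjusted permutation p = 0.0514), with 0.81 in females and 0.79 in males. Intercalated cells carry acid-base transport and neighbour principal cells in the collecting duct. Without female 6 and male 4 it was 0.66 (permutation p = 0.0234). SCNN1B had an r of 0.88 with the same level (adjusted permutation p = 0.0031), 0.91 in females and 0.88 in males, and 0.73 without female 6. With the principal cell level, which includes TMEM213 and AQP4, NR3C2 had an r of 0.83, NEDD4L 0.79, SCNN1G 0.78 and SCNN1B 0.77. Female 6 has the lowest principal cell level of the 14, at 2.62 against 3.47 to 4.59, and without it these values were 0.57, 0.66, 0.35 and 0.37. The levels of other segments passed too: with the thick ascending limb level NEDD4L had an r of 0.77 (adjusted permutation p = 0.0102) and NR3C2 0.69 (adjusted permutation p = 0.0369), and NR3C2 had 0.75 with the intercalated cell level (adjusted permutation p = 0.0386). HSD11B2 and SCNN1A had an r of 0.19 and 0.13 with the principal cell level. SCNN1A had an r of -0.64 with the proximal tubule level (adjusted permutation p = 0.0416), but 0.24 in males alone. Of 49 pairs 12 passed, and 2 of the 49 passed without female 6.

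**Figure D5:**
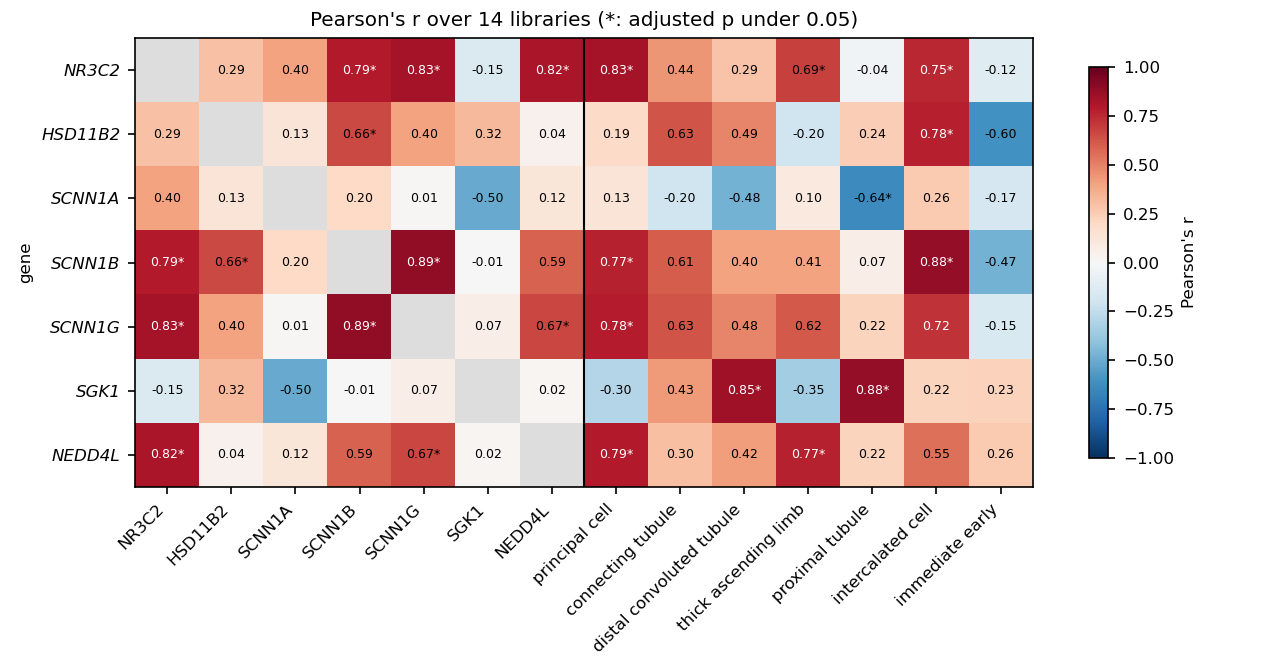
Pearson's r over 14 libraries between 7 genes (rows) and the same genes or marker list levels (columns). Asterisks mark an adjusted permutation p under 0.05. SGK1 has its highest values with the proximal tubule (0.88) and distal convoluted tubule (0.85) levels.

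Among the 9532 other genes tested, the 3 with the highest r to each gene were taken, as a description. For HSD11B2 they were TNS4 (0.91), ATP6V1B1 (0.89), a proton pump subunit of intercalated cells, and DGAT2 (0.88). For SCNN1A they were TRPV6 (0.87), an epithelial calcium channel, SGSM1 (0.86) and BCAT2 (0.84). SCNN1A had an r of at least 0.8 with 0.115% of genes and HSD11B2 with 0.168%, the smallest shares of the 7. For SCNN1B they were KCNQ1 (0.93), a potassium channel, EIPR1 (0.92) and SH2B1 (0.92), and for SCNN1G RPUSD3 (0.96), APTX (0.95) and REV1 (0.95). In males the r of SCNN1G was 0.61 with RPUSD3, -0.21 with APTX and 0.22 with REV1. Spearman's rho over the 14 libraries was 0.53 to 0.67 for these SCNN1G genes and 0.64 to 0.70 for the SCNN1B genes.

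For NR3C2 the nearest genes were CFAP69 (0.95), TMEM53 (0.93) and LOC101017281 (0.93), and for NEDD4L GSPT2 (0.97), BRAF (0.96) and STK24 (0.96). For SGK1 they were LOC101009903 (0.94), TSKU (0.93) and SLC6A13 (0.93), a GABA and taurine transporter. For NR3C1 over the 6 females they were LMBR1 (0.98), ARHGAP25 (0.98) and ZNF507 (0.97). The most opposed genes were LOC103887552 for NR3C2 (-0.88), LOC103879395 for HSD11B2 (-0.89), LOC108585046 for SCNN1A (-0.87) and LTB for SCNN1B (-0.84). They were LOC101018970 for SCNN1G (-0.89), CRIP2 for SGK1 (-0.90), LOC101023638 for NEDD4L (-0.89) and LOC101001498 for NR3C1 (-0.98).

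A count of 0 genes passed for age within either sex, for the difference of the age slopes between the sexes, or between the 2 name series of male libraries (0% of 9533 genes in each, limma). At an unadjusted p under 0.05 there were 212, 173, 312 and 691 genes, with 0 of the 7 among them in each comparison. The steepest slopes of the 7 in females were -0.26 per unit of age for SGK1 (SE 0.23) and -0.25 for HSD11B2 (SE 0.15). In males all 7 slopes lay between -0.08 and -0.01. Without female 8, the youngest female, the age slope of SGK1 differed between the sexes by -1.31 (SE 0.26, limma adjusted p = 0.0447), and 72 genes passed. This setting leaves females aged 17 to 19 only. At its ends stand single animals, female 7 (aged 17) and female 3 (aged 19). They had the highest and lowest SGK1 signal of the 6 females (79.9 and 12.0). Their proximal tubule levels, 7.39 and 2.61, were also the highest and lowest of the 6.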

How the data were processed

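The deposited values are a signal in non-whole numbers with none under 1, which was taken as an offset; how the authors normalized them is not stated, and column sums differ; Partek is named in the submitters' processing notes, and for aligner, quantifier, scaling method and build, nothing is named (not given in the sources used here). Whole reads could not be recovered from the steps of low values, so no count test was run. The table of males ended within a row, which was dropped; transcripts after it may be missing, so that sums over transcripts in both tables may be incomplete. All 17119 of its transcripts are in the table of females. The offset was subtracted and the transcripts in both tables were summed per gene. The 14 libraries outside the 3 muscle-rich ones were used. Genes reaching a signal of 1 in 6 or more libraries were tested on log2(signal + 1) with limma 3.58.1 (R 4.3.3, trend, Benjamini-Hochberg over all genes). Correlations used 100000 permutations, or all orders within a sex (Python 3.11.15, scipy 1.17.1). Scripts were tested on simulated data. Members and lists were chosen with earlier results of these data known. Named beside the members are the 3 most and the 1 least correlated genes of each, the 2 called genes of largest difference in each direction per list, and called markers of principal cells, connecting tubule and immediate early genes. Alternatives were other scalings, pseudocounts, filters, age as a term, single name series and each library left out. No sequence is shown.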

Additional observations from a re-analysis of the deposited data

Results flagged for a closer look

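In 39 sets of values (15 of them of the 8 genes, by sex) the libraries at either end were set against the others of that sex. Chance gives about 5% of sets, and 5 sets held a library that stood apart, each time female 6. On the log2(signal + 1) scale female 6 was lowest for NR3C2 (1.43, next 2.59), for SCNN1B (2.13, next 4.09) and for SCNN1G (2.17, next 4.63). Its intercalated cell level was 4.08, next to 5.06. Its step between low values was 0.3235, next to 0.095 in the other females, so it is the shallowest of the 14 libraries. Its part in the low values was not tested.

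Signal also lay in 6 NEDD4L transcripts held in the table of females alone and used in no comparison. Their sum was 30.0 in female 1 and 57.9 in female 2, the muscle-rich biopsies, and 7.44 to 21.7 in the other 6 females.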

How the results depend on the processing

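No paired analysis was possible because the labels number no replicates, so that numbers given in accession order pair no animals. Of the 7 genes 1 passed for sex as deposited, 0 with all 17 libraries, with age as a term or against series A males, and 2 with a pseudocount of 10 (NEDD4L and SCNN1G); leaving out each library gave 1 to 2, where the 1 without female 6 was SCNN1A in place of NEDD4L. The transcript count of 8 became 1 with 17 libraries, 4 and 5 after median and upper quartile scaling, 5 with a filter minimum of 10, 0 with age and 3 against series A, and 5 to 10 leaving out each library. The list count of 18 became 4 with 17 libraries, 0 with age and 16 to 23 leaving out each library. With age as a term 1 gene of 9533 passed. The difference in age slopes gave 0 to 1 of the 7 leaving out each library.

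Signs turned, with no adjusted p under 0.05, for HSD11B2 (0.33 median, 0.37 upper quartile, 0.82 age, 0.022 series A; -0.26 to 0.10 leaving out each library), NR3C2 (0.075, 0.045, and 0.079 with age), SCNN1A (-0.60 with 17 libraries), and with age SGK1 (0.041), CALB1 (0.14) and SLC12A3 (0.22); the cause was not tested. Of all 21 gene pairs 6 passed; 0 passed within females, 1 within males, 0 after median scaling, 0 without the 2 farthest libraries, 3 with a pseudocount of 0.1 and 0 to 7 leaving out each library; r of NEDD4L with SCNN1G was -0.071 in males. Of all 49 level pairs 12 passed; 6 passed in females (4 of them among the 12), 0 in males, 1 without the 2 farthest (not among the 12) and 2 to 15 leaving out each library; r of SCNN1A with the proximal tubule level was 0.24 in males. Values below the step between low values of the library included NR3C1 in females 6 and 8 and NR3C2 XM_017959113.2 in female 6. They also included NEDD4L XM_017951785.2 and XM_017951787.2 in female 6 and XM_003914415.4 in male 5, and the list is not complete.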

Other observations

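In the authors' deposited tables each transcript carries a module colour, set separately for females and males. In the table of females the colour tan holds transcripts of 6 of the 8 genes (NR3C2, SCNN1A, SCNN1B, SCNN1G, SGK1 and NEDD4L). Among them are the main NR3C2 transcript XM_017959108.2 and the SCNN1G transcript, but the main SGK1 transcript XM_003898154.3 has the colour pink. The 16 NEDD4L transcripts of that table fall into 8 colours and the 6 of SCNN1A into 4. In the authors' deposited table of males the colour black holds HSD11B2, both SCNN1B transcripts, and single transcripts of NR3C2, SCNN1A and NEDD4L. The share of all transcripts with the colour tan or black was not counted, so a grouping of these genes was not tested. The SCNN1A transcripts XM_021921936.1 and XM_021921938.1 share the colour grey60 in females and have the colours purple and greenyellow in males.

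Over the females the sum of all NEDD4L transcripts of their table was 45.7 at the median, against 34.6 over the transcripts in both tables. For SCNN1A the medians were 273 and 256, and for SGK1 39.9 and 38.7.

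AQP4, a water channel listed as a principal cell marker, was at 17.0 and 72.9 in the muscle-rich females and at 14.1 in the muscle-rich male, but at most 0.112 in the 14 other libraries.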
